A study of Mus musculus with 8 samples.

Results

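The genes described here are 10 components of endoplasmic reticulum (ER) protein folding and of the unfolded protein response, taken by name: the ER-luminal folding genes Hspa5, Hsp90b1, Calr, Pdia3, Pdia6, Sdf2l1 and Manf, and the transcription factor genes Xbp1, Atf4 and Ddit3. They are 10 of the 31053 genes in the tables, and all 10 were found once. Their unique molecular identifiers (UMIs, counts of captured mRNA molecules) were summed over the cells of each class and divided by all UMIs of that class, Malat1 left out, to give counts per 1000000 UMIs (CPM) by library. The cells came from dentate gyri of Nestin-GFP mice aged 8 weeks, in which regulatory sequence of the neural progenitor gene nestin drives green fluorescent protein (GFP). The Control mice had a sham craniotomy and the TBI mice a unilateral controlled cortical impact, a model of traumatic brain injury, and tissue was taken at day 15 after surgery in both groups. GFP-positive cells were sorted by flow cytometry and profiled by droplet 3′ single-cell RNA sequencing. The labels list 4 animals per group and the study's methods other numbers, and the animals of a group were pooled before sorting, so there was 1 library per condition. No comparison of the conditions therefore has a replicate or a test. Intervals given below are exact 95% intervals that cover counting error only, and animal, surgery and library cannot be told apart.

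Proteins that enter the secretory pathway fold in the ER lumen with the help of chaperones, lectins and enzymes that form disulfide bonds. When unfolded protein builds up, the sensors IRE1, PERK and ATF6 set off the unfolded protein response: IRE1 splices Xbp1 mRNA, PERK slows translation while favouring translation of Atf4, and ATF6 is cleaved to a transcription factor. Cells with a high load of secreted or membrane protein, such as myelinating and vascular cells, and cells that divide, also use these genes without injury.

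The Control library held 3086 cell barcodes with 24723113 UMIs and the TBI library 5081 barcodes with 31543330 UMIs, of which 3048 and 5033 passed the filters. The libraries share 3 barcodes. Median UMIs per kept cell were 6933 and 5676. All 356 barcodes that the study lists for Control cells were in the first table and none in the second, and all 320 listed for TBI cells were the other way round. Clusters formed without the genes of interest were placed in 11 classes by markers. In 10 of the 11 classes at least 6 of the 8 to 10 markers of the class were highest there. These included microglia, the immune cells of brain tissue, with all 8 markers, although the sort was for GFP-positive cells. The progenitors fell into a cycling and a radial glia-like (RG-like) class. Immature neurons had only 3 of 8, and their summed marker level, 4082 and 4075 CPM, was closest to that of Reln-expressing neurons. The RG-like class was close to neuroblasts: neuroblast markers summed to 5451 and 5614 CPM there, and its own markers to 6684 and 6280. A cluster with 33.1% of RG-like cells had a marker score of 1.33 for the RG-like class and 1.325 for neuroblasts. Its 10 leading genes included the replication genes Ung, Mcm2 and Mcm3. The larger RG-like cluster had scores of 1.543 for its own class and 1.279 for cycling progenitors. Markers of cycling progenitors summed to 1259 and 1242 CPM in the RG-like class, against 10497 and 9048.5 in their own. Cells left without a class numbered 122 and 126.

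Hspa5 encodes BiP, the ER Hsp70 chaperone that also holds the stress sensors inactive. Its level was 1664 CPM (interval 1485 to 1858) in Control microglia and 2015 (1886 to 2151) in TBI microglia. In every other class and library it was between 270 and 694. Mural cells, mostly pericytes and smooth muscle cells of vessels, came next with 536 and 694, followed by RG-like progenitors with 607 and 476 and cycling progenitors with 561 and 475. The ranges of these neighbours over the libraries overlapped. Oligodendrocytes, with 270 and 297, had the lowest level, and their range overlapped that of astrocytes with 315 and 289. In GENCODE coordinates on GRCm38 the gene lies on chromosome 2 from 34771970 to 34777547, plus strand.

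**Figure D1:**
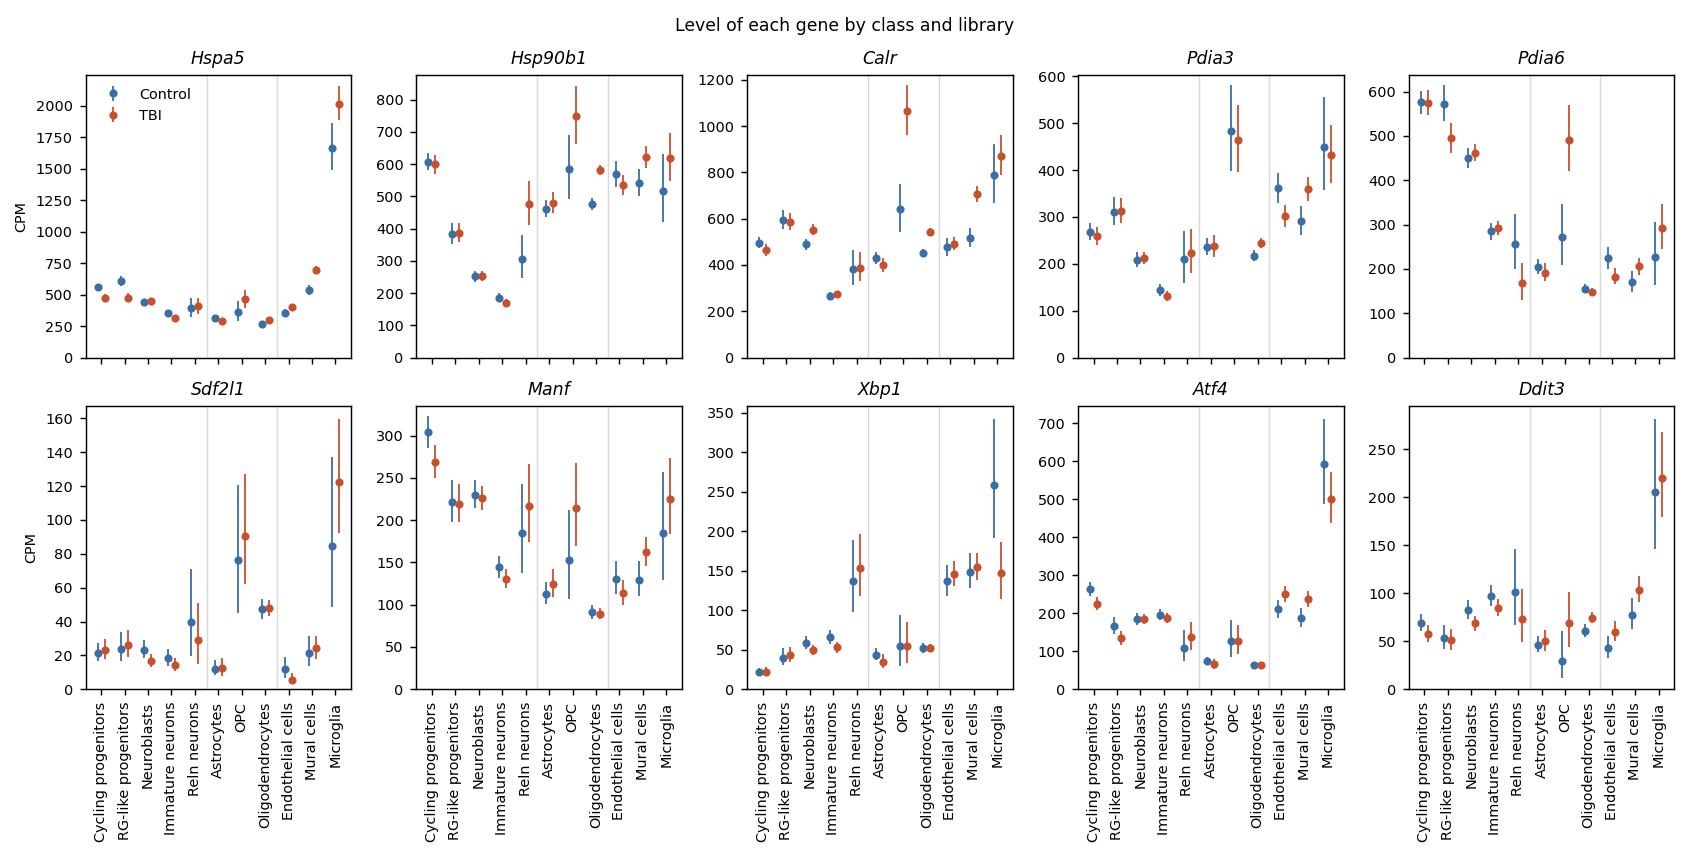
Level of each gene in CPM (linear axes from 0) in the 11 classes, with Control in blue and TBI in red and bars for the exact 95% Poisson interval of the summed count. Hspa5 stands at 1664 and 2015 in microglia and at 694 or less elsewhere, Pdia6 and Manf are highest in cycling progenitors, and Xbp1 is at 22 there.

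Several ER chaperone genes carry the ER stress response element (ERSE), to which ATF6 and the general factor NF-Y are known to bind. The stretches with this motif are shown because 4 of the 9 members found in the RefSeq promoter table (GRCm38.p6, 250 bases before to 50 after each start) hold it, while 39 of all 32817 promoters of that length, 0.119%, do. The motif searched was CCAAT and CCACG with 9 bases of any kind between them, on both strands, with the match in capitals and each stretch written on the strand of its gene.
Hspa5, chr2:34772020-34772048, plus strand: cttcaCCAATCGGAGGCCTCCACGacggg
Hsp90b1, chr10:86705523-86705666, minus strand: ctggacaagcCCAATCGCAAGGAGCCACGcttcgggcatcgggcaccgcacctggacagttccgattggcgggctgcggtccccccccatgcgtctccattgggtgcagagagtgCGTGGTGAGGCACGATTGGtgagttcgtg
Calr, chr8:84847065-84847103, minus strand: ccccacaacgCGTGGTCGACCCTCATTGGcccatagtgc
Pdia6, chr12:17266481-17266519, plus strand: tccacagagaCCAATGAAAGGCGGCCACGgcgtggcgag
The match begins 65 bases before the RefSeq start in Hspa5 and 98 in Pdia6. The Hspa5 stretch lies within the GENCODE span given above, which starts at 34771970, before the RefSeq start. In Hsp90b1 a forward match begins 212 bases before the start and a reverse match 107 bases before it, and in Calr the match is reversed and begins 162 bases before the start. The members Pdia3, Sdf2l1, Xbp1, Atf4 and Ddit3 had no match of these letters in the window. None of the 9 held ERSE-II (ATTGG and CCACG with 1 base between them, in 0.0366% of promoters), TGACGTGG (the unfolded protein response element, 0.676%) or TGATGNAA (the C/EBP-ATF element, 3.97%). Because ER chaperone genes are known to carry the ERSE, its share among the members is not a test. A match is a description of letters and not of a bound factor, and the 4 genes with the element did not share 1 order of classes.

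Hsp90b1 encodes GRP94, the ER Hsp90 paralogue, on chromosome 10 from 86690209 to 86705509, minus strand. It had its lowest levels in immature neurons, 186 and 169 CPM in Control and TBI, and in neuroblasts, 252 and 253. Those ranges overlapped neither each other nor any other class. OPC (oligodendrocyte precursor cells) with 585 and 749, cycling progenitors with 608 and 599 and mural cells with 541 and 622 were highest, with overlapping ranges. Within cycling progenitors the level was uneven: the cluster led by Cdc20, Cenpa and Ccnb2, genes of mitosis, stood at 1080 and 1038, against 393 and 461 in the cluster led by histone genes and 349 and 313 in that led by the replication genes Ung, Uhrf1 and Cdc6. Hsp90b1 was not used to form these clusters.

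Calr encodes calreticulin, the lectin chaperone that retains glycoproteins in the ER, and Pdia3 encodes ERp57, the disulfide isomerase that works with it. They lie on chromosome 8 from 84841850 to 84846934, minus strand, and on chromosome 2 from 121413775 to 121438687, plus strand. Both were lowest in immature neurons, Calr at 265 in Control and 274 in TBI and Pdia3 at 143 and 131. Over both libraries together each was highest in OPC, Calr at 640 and 1065 and Pdia3 at 484 and 464. Microglia came next, with 787 and 871 for Calr and 449 and 432 for Pdia3. Over the 22 points made of 11 classes and 2 libraries, Pearson's r of their log2 levels was 0.89, and it was 0.86 over the 20 points without microglia. Points of a class share cells of like composition and points of a library share its depth, so these r are descriptions.

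Pdia6 encodes the disulfide isomerase P5, and Manf a secreted factor that is retained in the ER and was named for its effect on neurons. They lie on chromosome 12 from 17266545 to 17284770, plus strand, and on chromosome 9 from 106838312 to 106891979, minus strand. Both were highest in cycling progenitors and lowest in oligodendrocytes. Pdia6 was at 575 CPM in each library in cycling progenitors, 573 and 494 in RG-like progenitors, 450 and 462 in neuroblasts and 284 and 291 in immature neurons, against 155 and 148 in oligodendrocytes. Manf was at 304 and 269 in cycling progenitors, 230 and 226 in neuroblasts, 222 and 219 in RG-like progenitors, 144 and 131 in immature neurons and 91 and 89 in oligodendrocytes. Their r was 0.81 over 22 points and 0.95 over the 16 points of the 8 classes with at least 50 cells in each library, the highest of any pair of the 10 genes on those 16 points.

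Sdf2l1 (chromosome 16, 17130138 to 17132383, minus strand), which encodes a partner in the BiP cycle, was the member with the widest range of classes, 14.3-fold between microglia, 84.5 and 122, and endothelial cells, 11.7 and 5.40. Its counts were small: 16 and 55 UMIs in microglia and 16 and 12 in endothelial cells. In oligodendrocytes it was even in the libraries, 47.2 and 47.8, and that range overlapped neither OPC above it nor Reln neurons below it.

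Xbp1 (chromosome 11, 5520659 to 5525893, plus strand) encodes the transcription factor whose mRNA IRE1 splices, and 3′ counts do not tell the spliced from the unspliced form. It was lowest in cycling progenitors, 21.9 CPM in Control and 21.6 in TBI, and its range there overlapped no other class. RG-like progenitors were at 39.8 and 43.2, neuroblasts at 58.9 and 49.6 and immature neurons at 66.0 and 52.8, with the last pair overlapping. A set of 4 classes stood above all others in both libraries: endothelial cells at 136 and 146, Reln neurons at 137 and 153, mural cells at 149 and 155 and microglia at 259 and 147. The range of Reln neurons overlapped those of the other classes in this set, and that of mural cells overlapped microglia, while that of endothelial cells overlapped neither mural cells nor microglia.

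Atf4 (chromosome 15, 80255184 to 80257541, plus strand) encodes the factor made when PERK or related kinases phosphorylate eIF2α, and its activity is set largely by translation, which mRNA counts do not measure. Microglia had the highest level, 592 and 501. Cycling progenitors at 263 and 225, endothelial cells at 210 and 250 and mural cells at 189 and 238 followed with overlapping ranges. Astrocytes at 73.7 and 65.6 and oligodendrocytes at 64.5 and 62.5 were below every other class, and between them the ranges did not overlap.

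Ddit3 (chromosome 10, 127290774 to 127296288, plus strand) encodes CHOP, a factor induced by ATF4 that is linked to cell death under lasting stress. It was at 206 and 220 in microglia and between 29.7 and 104 in every other class and library. From mural cells, at 77.4 and 104, down to RG-like progenitors, at 53.6 and 51.1, each class overlapped the next in the order, and astrocytes, at 46.3 and 49.9, were lowest over both libraries.

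Along the neurogenic classes the summed ER-luminal level was lower at each step, though the first step was small and single genes did not all follow it. The summed level of the 7 genes was 2833 and 2665 CPM in cycling progenitors, 2716 and 2501 in RG-like progenitors, 2092 and 2175 in neuroblasts and 1395 and 1326 in immature neurons. The last step was the largest in both libraries. In the first, cycling progenitors had 1.04 and 1.07 times the RG-like level, and their clusters were uneven. The mitotic cluster was at 3447 and 3199, that led by replication genes at 3088 and 2624 and that led by histone genes at 2307 and 2283. The RG-like clusters were at 2604 and 2539 and at 2910 and 2422, above the histone cluster in both libraries. Calr was lower in cycling than in RG-like progenitors, 0.831 times (0.765 to 0.905) in Control and 0.793 times (0.730 to 0.861) in TBI, as was Pdia3, at 0.862 and 0.830 times. Hspa5, at 0.924 and 0.999 times, and Sdf2l1, at 0.903 and 0.882 times, were also below the RG-like level, with intervals that included 1. Manf was slightly higher in neuroblasts than in RG-like progenitors. Cycling progenitors had 3.27 times (interval 2.99 to 3.59) the Hsp90b1 level of immature neurons in Control and 3.56 times (3.26 to 3.88) in TBI. For Pdia6 the same comparison gave 2.02 times (1.87 to 2.19) and 1.97 times (1.83 to 2.12), and for Hspa5 1.58 times (1.47 to 1.71) and 1.498 times (1.39 to 1.62). Xbp1 went the other way, with 0.331 times (0.251 to 0.433) and 0.410 times (0.304 to 0.546) the level of immature neurons. So did Ddit3, with 0.705 times (0.593 to 0.838) and 0.681 times (0.563 to 0.821). Median UMIs per cell also differed along these classes, from 17426 and 11985 in cycling progenitors to 9742 and 7168 in immature neurons, and the part of that in the levels was not tested.

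Immediate early genes, such as Fos and Jun, respond within minutes and are known to be induced when tissue is dissociated. Their summed level was 24089 CPM in Control microglia and 18563 in TBI microglia, 12254 and 16627 in mural cells, 14346 and 15561 in endothelial cells and between 284 and 4493 in the other classes. Klf2 in that list is also an endothelial gene, at 3472 and 2990 in endothelial cells. The 2 clusters of microglia differed: that led by Cx3cr1, Ccl4 and C1qa held 20 and 61 cells with Hspa5 at 1946 and 2186, and that led by Lyz2, Tyrobp and Cd52 held 18 and 27 cells with Hspa5 at 426 and 553. Over both libraries the immediate early sum was 22729 in the first and 3092 in the second, and Ddit3 was 239 and 60.9. Median UMIs per cell were 6922 and 1625.

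Cells of each class and library were then split at the 75th percentile of the immediate early sum, a split made for description. Atf4 was higher above the percentile in 22 of 22 class and library points, with a median of 1.38 times the level of the rest, and Ddit3 in 21 of 22, with a median of 1.58. Hspa5 was higher in 20 of 22, with a median of 1.21 and a top value of 2.57 in Control microglia. The chaperones Hsp90b1, Calr, Pdia3 and Pdia6 were higher in 6, 9, 10 and 7 of 22, with medians between 0.898 and 0.981. The share of all genes that were higher above the percentile was not taken, so these counts have no background. The split can also part the clusters of a class, such as those of microglia described above. The part of clusters and of dissociation in these values was not tested.

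**Figure D2:**
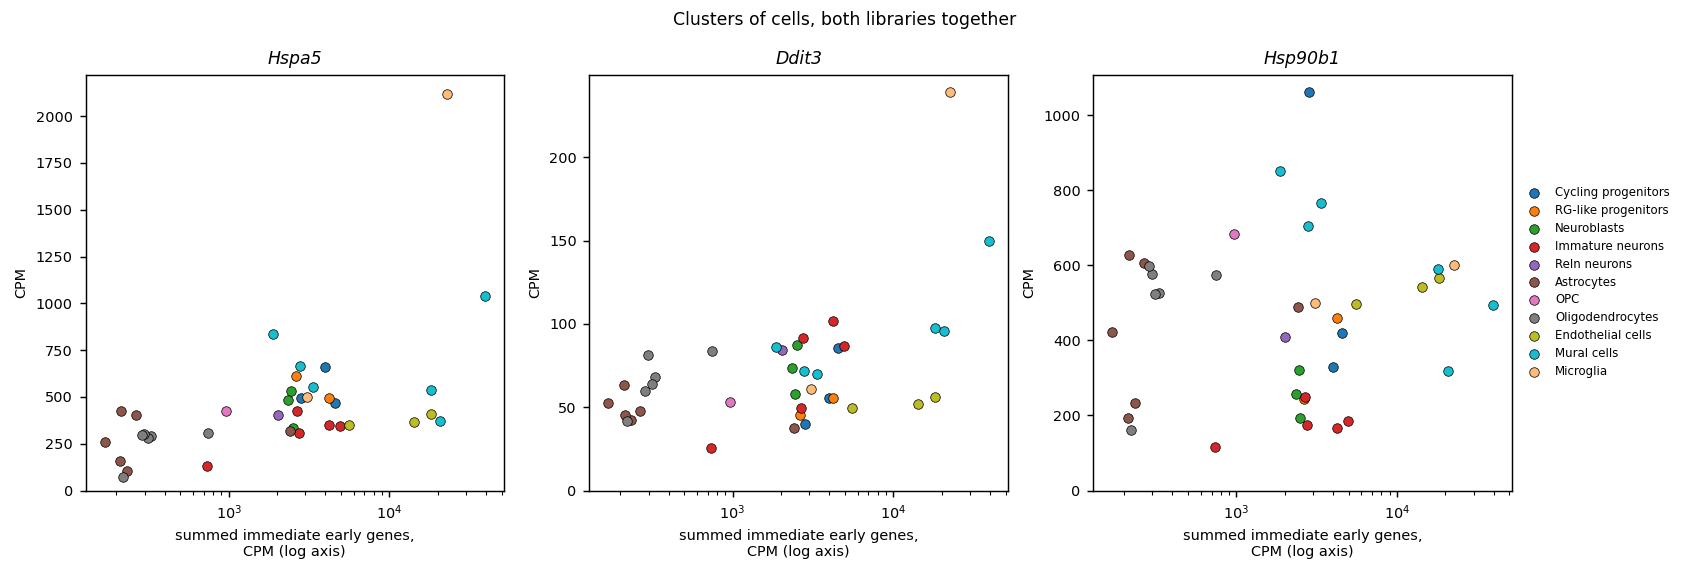
Each point is a cluster of cells with both libraries combined, plotted by the summed level of 10 immediate early genes (log axis) and the level of Hspa5, Ddit3 or Hsp90b1 (linear axes from 0), all in CPM and coloured by class. The microglial cluster at 22729 on the horizontal axis has the highest Hspa5 and Ddit3, 2120 and 239, and for Hsp90b1 the highest point is the mitotic cluster of cycling progenitors at 1062.

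The study set TBI against Control to ask how injury alters cells of the dentate gyrus. Of 110 pairs of a gene and a class, 98 had no library under 10 UMIs and a sum of 100 or more over both. Of these, 5 differed by 1.5-fold or more between the libraries, against 4.04% of all gene and class pairs that passed the same minimum. All 5 fell in Reln neurons, OPC and microglia, each with fewer than 100 cells in either library. The counting interval of the log2 ratio excluded 0 in 35 of the 98, against 17.0% of all pairs. The width of an interval depends on the number of UMIs. The part of that in this share, and in the shares by class given below, was not tested.

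**Figure D3:**
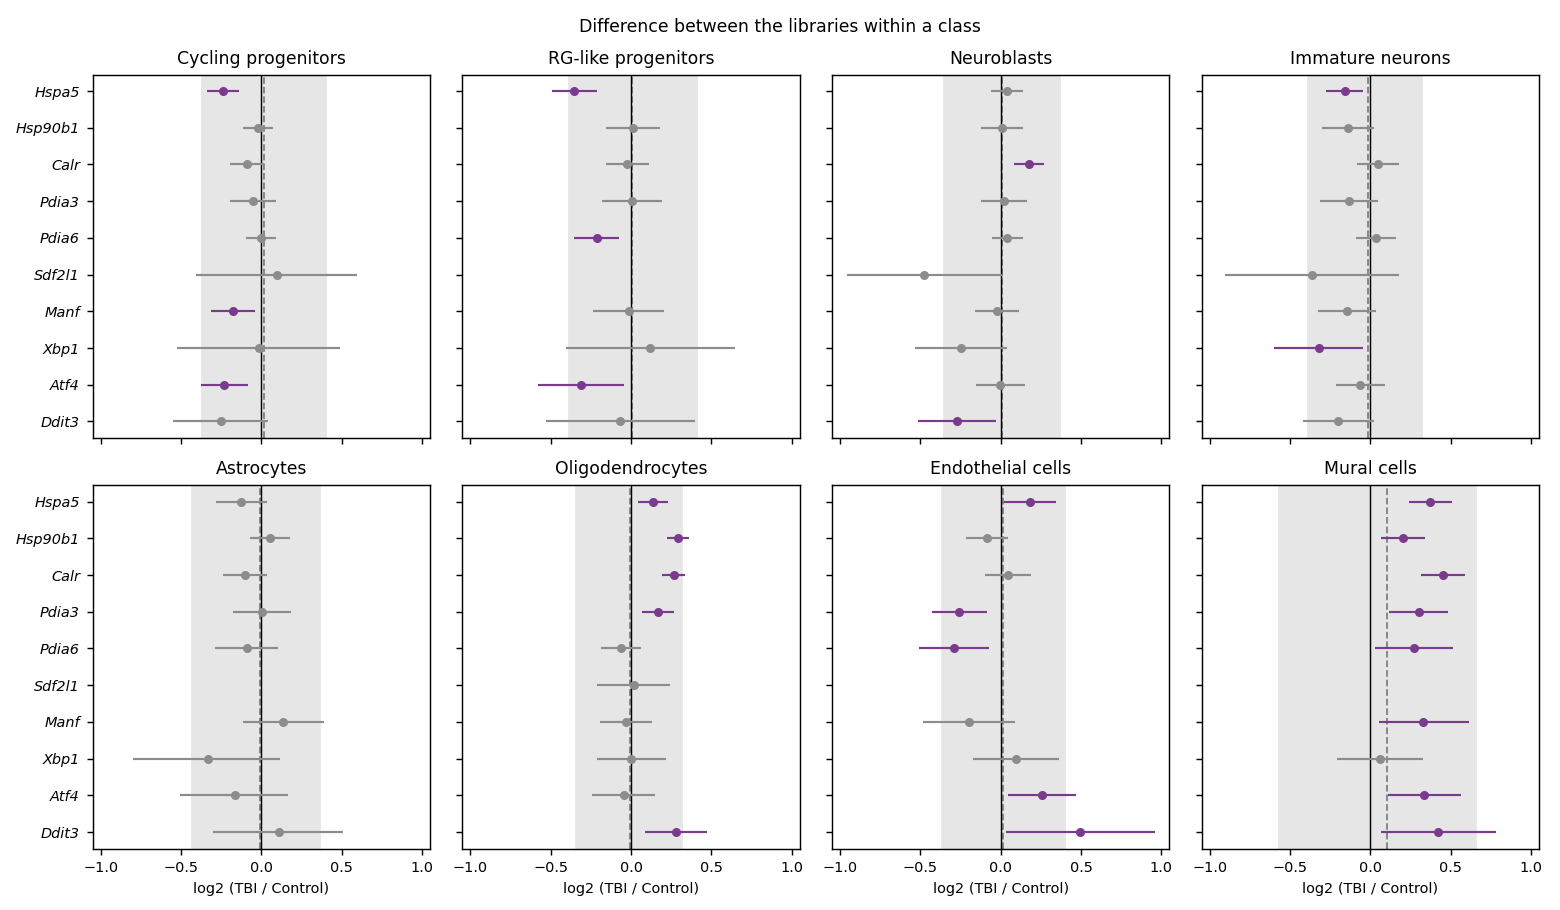
Log2 ratio of TBI to Control of each gene within 8 classes, with exact 95% counting intervals, in purple where the interval excludes 0. The grey band holds the 5th to 95th percentile of all genes tested in the class and the dashed line is their median. Most points lie within the band, and in mural cells all 9 tested genes lie to the right of 0.

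In progenitors Hspa5 was lower in the TBI library. Cycling progenitors had 561 CPM in Control and 475 in TBI, a log2 ratio of -0.24 (interval -0.34 to -0.14), and RG-like progenitors 607 and 476, a ratio of -0.35 (-0.49 to -0.21). The ratio was below 0 in each of the 5 progenitor clusters, from -0.54 in the replication cluster of cycling progenitors to -0.10 in the mitotic cluster, whose interval included 0. Atf4 was also lower, at -0.23 (-0.38 to -0.08) in cycling and -0.31 (-0.58 to -0.04) in RG-like progenitors. Manf in cycling progenitors, at -0.18, and Pdia6 in RG-like progenitors, at -0.21, were the other members whose interval lay below 0. That made 3 of 10 members in cycling progenitors, where 7.97% of all genes had such an interval, and 3 of 9 tested in RG-like progenitors, where 5.98% had. None passed 1.5-fold, as 2.44% and 2.76% of all genes did. The summed ER-luminal level was 2799 and 2602 in progenitors as a whole, a ratio of -0.11 (-0.14 to -0.07). The immediate early sum was lower in TBI in the same cells, 4427 and 3193 in cycling and 4493 and 3013 in RG-like progenitors. Without the cells above the 75th percentile of that sum in their class and library, Hspa5 had ratios of -0.25 and -0.22. Those of Atf4 were -0.14 in cycling progenitors and 0.049 in RG-like progenitors. The cut was made within each library, so the cells left were not matched on that sum. The part of that sum in these ratios was not tested.

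The summed ER-luminal level had a log2 ratio of 0.056 (0.011 to 0.10) in neuroblasts and of -0.073 (-0.13 to -0.016) in immature neurons, in opposite directions and both small. Pooled over both classes the interval was -0.03 to 0.04. Calr was higher in TBI neuroblasts, 489 and 553 CPM with a ratio of 0.18 (0.08 to 0.27), and Ddit3 was lower, 82.7 and 68.5 with a ratio of -0.27 (-0.51 to -0.03). Immature neurons had lower Hspa5, 354 and 317 with a ratio of -0.16 (-0.27 to -0.04), and lower Xbp1, 66.0 and 52.8 with a ratio of -0.32 (-0.60 to -0.04). Intervals above 0 held 8.22% and those below 0 7.35% of all genes in neuroblasts, and 8.06% lay below 0 in immature neurons.

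Astrocytes showed no member whose interval excluded 0. Their summed ER-luminal level was 1772 CPM in Control and 1734 in TBI, a log2 ratio of -0.03 (-0.10 to 0.03), and the ratio was 0.042 in the astrocytes with at least 2000 UMIs. Intervals excluded 0 for 13.6% of all genes in this class. The 6 clusters were less even: the summed ratio was -0.31 (-0.49 to -0.13), -0.34 (-0.62 to -0.073) and -0.22 (-0.42 to -0.019) in 3 of them, and in the other 3 it was between 0.00 and 0.28 with intervals that included 0. In the first pair Hspa5 was at 316 and 188 and at 205 and 92.5. The cluster with the lowest summed level, 551 and 669, held 24.5% of Control and 15.9% of TBI astrocytes. Choroid plexus markers summed to 1447 in Control and 225 in TBI astrocytes. The part of these differences in the class ratio was not tested.

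In oligodendrocytes 4 chaperone genes were higher in TBI. Hsp90b1 was at 476 and 582 CPM, a log2 ratio of 0.29 (0.22 to 0.36), and Calr at 453 and 545, a ratio of 0.27 (0.20 to 0.34). Pdia3 had a ratio of 0.17 and Hspa5 of 0.14, and Ddit3 was also higher at 0.28 (0.09 to 0.47). These were 5 of 10 members with an interval above 0, against 8.68% of all genes, while Pdia6, Manf and Sdf2l1 had ratios of -0.06, -0.03 and 0.02. The summed level was 1710 and 1954, a ratio of 0.19 (0.16 to 0.23). It was above 0 with its interval in 4 of 6 clusters, from 0.11 to 0.36, and at -0.02 in the cluster led by Ptgds and Il33, which held 45 Control and 203 TBI cells and had 14.5% doublet calls. In that cluster Hspa5 was lower in TBI, with a ratio of -0.41 (-0.68 to -0.14). The sixth cluster, of 97 and 140 cells, had the lowest summed ratio, -0.11 (-0.52 to 0.31). The immediate early sum was 284 and 418.

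Mural cells had the difference most even over the members, at the level of the whole class and not of its clusters. All 9 tested members were higher in TBI, where 63.8% of all genes were, and 8 of the 9 had an interval above 0, where 18.6% of all genes did. None of the 9 passed 1.5-fold, which 11.8% of all genes did in either direction. Calr was at 516 CPM in Control and 707 in TBI, a log2 ratio of 0.45 (0.32 to 0.59), and Hspa5 at 536 and 694, a ratio of 0.37 (0.24 to 0.51). Ddit3 had a ratio of 0.42 (0.07 to 0.78), Atf4 of 0.33 (0.11 to 0.57), and Xbp1, at 149 and 155, of 0.06. The median ratio of the 9 was 0.33, and that of all genes in the class was 0.10.

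The mural clusters were not present in like shares in the libraries. The cluster led by the contractile genes Acta2, Tagln and Myh11 had the lowest summed ER-luminal level, 1217 and 1479, and gave 35.4% of the mural UMIs in Control but 10.98% in TBI. The cluster led by Kcnj8, Hspa1a and Rgs4, with an immediate early sum of 39293 over both libraries, had Hspa5 at 989 and 1051 and gave 8.24% and 22.6%. Within the 6 clusters the ratio of the summed ER-luminal genes was between -0.08 and 0.36, with an interval above 0 in 2. For Calr the ratio was positive in each of the 6, from 0.17 to 0.75. The values 0.36 and 0.75 came from the cluster led by Notch3, Rgs5 and Inpp4b. It had 12.15% doublet calls and marker scores of 2.202 for mural and 1.824 for endothelial cells. The smallest cluster, of 12 Control and 18 TBI cells, was led by Spp1, Dcn and Slc6a13, with 4 of 9 mural markers detected. Without the contractile cluster the ratio was 0.24 for Calr, 0.20 for Hspa5, 0.52 for Atf4 and Ddit3, -0.064 for Hsp90b1 and -0.019 for Pdia3. Without the Hspa1a cluster it was 0.45 for Calr, 0.25 for Hspa5, 0.18 for Atf4 and 0.21 for Ddit3. Both omissions were chosen after seeing the data, and the part of the cluster shares in the class ratios was not tested.

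**Figure D4:**
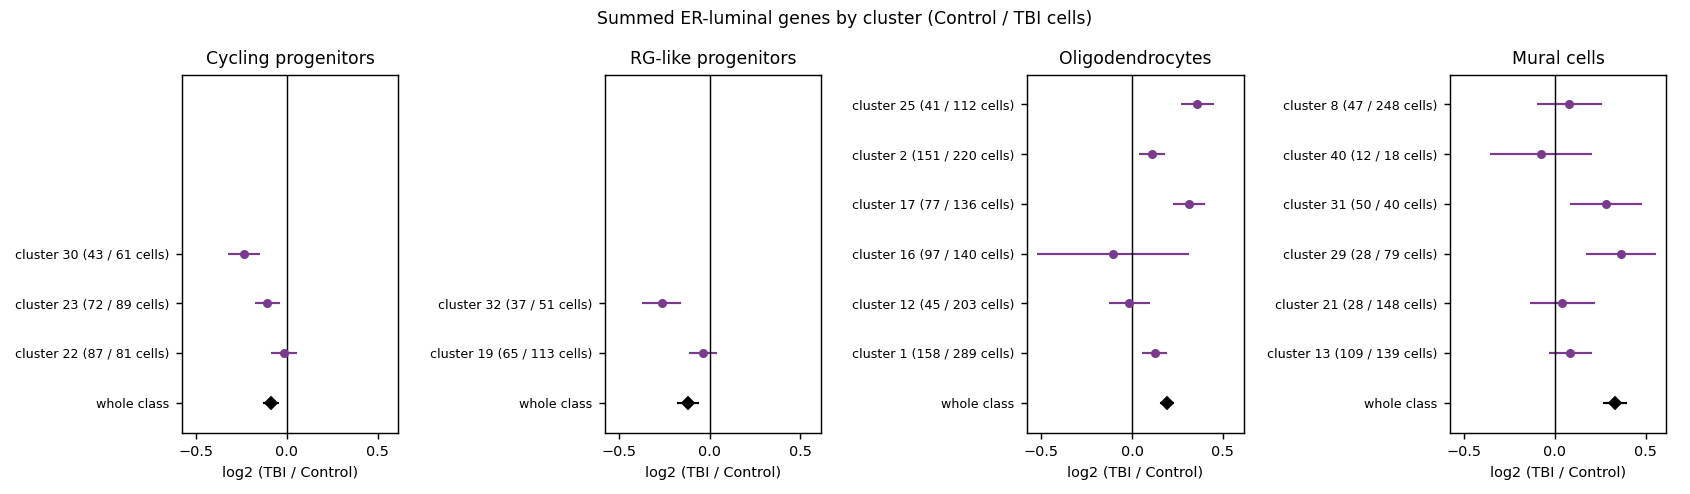
Log2 ratio of TBI to Control of the summed ER-luminal genes in whole classes (black diamonds) and in each of their clusters (purple points), with exact 95% counting intervals and the number of Control and TBI cells beside each cluster. In mural cells the whole class lies at 0.33 and 4 of the 6 clusters have intervals that include 0, while in oligodendrocytes 4 of 6 lie above 0.

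In endothelial cells the members went both ways. Ddit3 was at 42.5 and 59.8 CPM, a log2 ratio of 0.49 (0.04 to 0.96), Atf4 at 210 and 250, a ratio of 0.26 (0.05 to 0.47), and Hspa5 at 352 and 399, a ratio of 0.18 (0.02 to 0.34). Pdia3, at 361 and 302, had a ratio of -0.26 (-0.43 to -0.09) and Pdia6, at 224 and 183, of -0.29 (-0.51 to -0.07). Intervals above 0 held 6.3% and those below 0 4.76% of all genes. Hemoglobin and other blood genes summed to 9054 in Control and 3042 in TBI endothelial cells, and their part in these ratios was not tested. The clusters differed in Hspa5. It was at 368 and 364 in the largest, with 54.1% of Control and 47.2% of TBI endothelial cells. In the cluster led by Edn1, Alpl and Sox17 it was at 350 and 442. In that with median UMIs of 1100 it was at 196 (14 UMIs) and 404 (85 UMIs). The summed ER-luminal ratio was -0.065 (-0.13 to 0.0026) in endothelial cells and 0.33 in mural cells. For all vascular cells it was 0.15 (0.10 to 0.20), and it was 0.058 without the contractile mural cluster and 0.070 without the cells above the 75th percentile of the immediate early sum.

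The small classes gave the widest differences and the fewest UMIs. In microglia Xbp1 was at 259 in Control (49 UMIs) and 147 in TBI (66 UMIs), a log2 ratio of -0.82 (-1.37 to -0.25), while Hspa5 was higher with a ratio of 0.28 (0.09 to 0.47). In the Cx3cr1 cluster, which held 52.6% of Control and 69.3% of TBI microglia, the Hspa5 ratio was 0.17 (-0.023 to 0.36), and in the other it was 0.38 (-0.59 to 1.40). Intervals excluded 0 for 22.8% of all genes there, and 9.89% passed 1.5-fold. In the 29 Control and 55 TBI OPC, Calr had a ratio of 0.73 (0.46 to 1.01) and Pdia6 of 0.86 (0.44 to 1.29), in a class where 32.3% of all genes passed 1.5-fold. Markers of mature oligodendrocytes summed to 21756 in Control OPC and 5612 in TBI OPC, and their part in these ratios was not tested. In the 31 Control and 77 TBI Reln neurons, Hsp90b1 was at 307 and 477, a ratio of 0.63 (0.26 to 1.02), and Pdia6 at 257 and 168, a ratio of -0.61 (-1.11 to -0.11), where 9.42% of all genes passed 1.5-fold. Neuroblast markers summed to 3368 in Control and 1026 in TBI Reln neurons, oligodendrocyte markers to 2193 and 280 and endothelial markers to 14.5 and 258, and their part in these ratios was not tested.

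Other genes of the pathway were taken from fixed lists. Of 19 further ER folding and degradation genes, 6 had their highest level in microglia and 4 in OPC, with the share of all genes highest there not taken. Those with the widest range of classes were Edem1, which directs misfolded glycoproteins to degradation, at 164 and 176 CPM in microglia and 4.4 and 8.54 in endothelial cells, and Herpud1, a subunit of the degradation complex, at 771 and 719 in microglia and 40.2 and 39.9 in oligodendrocytes. Past 1.5-fold between the libraries were Hyou1, an ER Hsp70-like exchange factor, with a log2 ratio of -0.84 (-1.48 to -0.23) in cycling progenitors, and Derl2 with 0.73 (0.23 to 1.24) in mural cells. Each was 1 of 13 tested genes of the list in its class. Of all genes, 2.44% passed that fold in either direction in cycling progenitors and 11.8% in mural cells.

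Among 12 genes of protein entry into the ER, Sec11c, a catalytic subunit of signal peptidase, was at 1342 and 1592 in oligodendrocytes and 30.4 and 31.8 in RG-like progenitors, a 47.8-fold range. It was also past 1.5-fold higher in TBI cycling progenitors, with a ratio of 0.65 (0.32 to 0.98). That was 1 of 12 tested genes of the list, against 2.44% of all genes in either direction. Markers of oligodendrocytes summed to 120 in Control and 720 in TBI cycling progenitors, and their part in this ratio was not tested. Sec11c was past that fold in OPC too, where 5 of 8 tested genes of the list were higher past 1.5-fold and 1 lower, against 32.3% of all genes in either direction. Spcs3, another signal peptidase subunit, ranged 3.60-fold between OPC and immature neurons, and in TBI neuroblasts it was lower past 1.5-fold, with a ratio of -0.69 (-1.14 to -0.24), as 2.08% of all genes were past that fold in either direction there. Of 9 sensors and processing genes, 4 were highest in mural cells, again without a share of all genes, and none of those tested passed 1.5-fold in any class. Creb3l2 was at 74.9 and 82.2 in mural cells and 2.21 and 2.98 in immature neurons, and Creb3l1 at 13.7 and 16 in neuroblasts and 0.705 and 0.347 in oligodendrocytes. Both encode ATF6-like factors that are cleaved from the membrane.

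Of 15 targets of the integrated stress response, the branch through ATF4, Atf3 was at 2614 and 2944 in microglia with no UMI in OPC, at least 569-fold higher than 3 counts would give there. Slc7a11, a cystine transporter, was at 456 and 448 in astrocytes with no UMI in Reln neurons, at least 104-fold. In endothelial cells 2.28% of all genes passed 1.5-fold, and 2 of 4 tested genes of the list were higher in TBI by that fold. They were Ppp1r15a, the phosphatase subunit that ends the response, with a ratio of 0.59 (0.38 to 0.80), and Atf3 with 0.67 (0.45 to 0.89). The immediate early sum was 14346 and 15561 in endothelial cells and 24089 and 18563 in microglia. The part of dissociation in these Atf3 and Ppp1r15a values was not tested. In RG-like progenitors Atf5 was higher past that fold, 1 of 6 tested, against 2.76% of all genes. In microglia Cebpb was higher and Slc3a2 lower past it, of 4 tested, against 9.89%. In mural cells Atf3 had a ratio of -0.58 (-0.72 to -0.43) and Ppp1r15a of -0.26 (-0.39 to -0.13), and 2 of 8 tested genes, Atf5 and Slc7a11, were lower past 1.5-fold, which 11.8% of all mural genes passed in either direction. Against the same mural share, cytosolic heat shock genes had 3 of 10 higher past 1.5-fold in TBI mural cells, Hspa1a, Hspa1b and Dnajb1. In endothelial cells 2 of 10 were lower in TBI by that fold, Hspa1a and Hspa1b, against 2.28% of all genes in either direction. Dnajb1 was lower past it in RG-like progenitors, 1 of 6 tested (2.76%). Higher past it were Hspa1a in oligodendrocytes, 1 of 9 (1.75%), Hsp90aa1 in microglia, 1 of 4 (9.89%), and Hspa8 in OPC, 1 of 4 (32.3%). In that list Hspb1 ranged from 1959 and 1693 in endothelial cells to 0.947 and 2.07 in immature neurons, and Hspa1b from 323 and 191 in endothelial cells to 3 UMIs in all immature neurons. Of 10 immediate early genes, 5 of 9 tested were higher past 1.5-fold in TBI oligodendrocytes, where 1.75% of all genes passed it in either direction. In mural cells 4 of 10 were higher, where 11.8% passed it. Lower past that fold were 3 of 8 in RG-like and 2 of 8 in cycling progenitors, where 2.76% and 2.44% passed it. So were 2 of 8 in neuroblasts (2.08%), 3 of 6 in Reln neurons (9.42%) and 1 of 7 each in astrocytes (2.5%) and microglia (9.89%). In endothelial cells 1 of 10 was higher (2.28%), and in OPC 1 of 2 (32.3%). Junb ranged from 5973 and 5643 in microglia to 9.34 and 22.9 in oligodendrocytes.

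Over the 16 points of 8 classes and both libraries, the genes outside the lists whose log2 level was most like that of Hspa5 were Pole4, Emd, Pprc1, 1110059E24Rik and Rgs19, with Pearson's r from 0.92 down to 0.88. For Atf4 they were Znrd1, Zfp212, Bok, Ppp1r18 and Topors, with r from 0.97 to 0.94. The search ran over 12045 genes on 16 points that share libraries and depth, so the r are a ranking only. Between members the r on the same points went from 0.95 for Pdia6 with Manf to -0.59 for Pdia6 with Xbp1, and it was 0.69 for Hspa5 with Atf4.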

How the data were processed

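Dentate gyrus cells of Nestin-GFP mice were dissociated, sorted for GFP and sequenced with the 10x Genomics 3′ kit (v3). The authors deposited UMI count matrices made with Cell Ranger 3.0.2 (submitters' processing notes) on GRCm38/mm10, with 1 table per condition. Tables were tied to conditions by barcodes that the study lists by condition. The deposited counts were used without correction for ambient RNA, so transcripts of abundant cells can add to other classes. The 10 genes and the other lists were chosen with earlier results of these data known.

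Cells with at least 200 genes and a log UMI count within 3 median absolute deviations were kept. Doublets were called with Scrublet (scanpy 1.11.5) in 41 Control and 109 TBI cells and left in, with their removal as an alternative. Clusters were made in Seurat 5.3.0 (R 4.3.3) from 2000 variable genes without the listed genes, integrated by canonical correlation over 20 dimensions, with 20 components and resolution 3. A cluster took the class with the highest mean marker score among those with at least 3 detected markers, and stayed unnamed with a low UMI count and no marker of the class among its 10 leading genes, with over 50% doublets or with leading genes of another class. Summed UMIs were divided by the class total without Malat1. Levels have exact Poisson intervals, and TBI to Control ratios have exact conditional binomial (Clopper-Pearson) intervals at 95%. UMIs count molecules, but cells of 1 library are not replicates. Genes named were the 10 members, the 2 genes of each further list with the widest range of classes (at least 200 UMIs), and the 5 genes most like Hspa5 and Atf4. Others past 1.5-fold were named after their values were seen. The interval and fold rules were tested on simulated counts. Alternatives changed cell filters, doublets, clustering, class assignment, denominator, averaging, the count minimum and single clusters. Hsp90b1 and Manf overlap other annotated genes on their own strand (Gm15344, Gm25745 and Rbm15b), whose reads the deposited counts may have set aside. Promoter sequences came from RefSeq, where 9 of 10 members matched, and Manf was not matched.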

Additional observations from a re-analysis of the deposited data

Results flagged for a closer look

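For 6 of the 10 genes the counting interval of the TBI to Control ratio lay above 0 in some class and below 0 in another, which flagged them as differing between cell classes. The share of all genes that met this rule was not taken, so the count has no background. With 1 library per condition the difference between the classes was not tested. The widest gap on the log2 scale was 1.47 for Pdia6, between 0.86 in OPC and -0.61 in Reln neurons. OPC held only 29 Control and 55 TBI cells, and Reln neurons 31 and 77. Next was 0.76 for Ddit3, between 0.49 in endothelial cells and -0.27 in neuroblasts. Hspa5 differed by 0.73 between mural cells, at 0.37, and RG-like progenitors, at -0.35, with intervals above 0 in 4 classes and below 0 in 3. Atf4 differed by 0.65 between the same classes, at 0.33 and -0.31. Pdia3 differed by 0.56 between mural cells, at 0.30, and endothelial cells, at -0.26. Its mural value was -0.019 without the contractile mural cluster. Manf differed by 0.51 between mural cells, at 0.33, and cycling progenitors, at -0.18.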

How the results depend on the processing

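No paired analysis was possible because each library is a pool of the animals of its condition, so the replicate numbers in the labels name no column of the tables. Leaving out a replicate was likewise not possible. Of 1540 recomputed log2 ratios (110 gene and class pairs under 14 settings) 1510 stayed within the counting interval of the reported value, 27 moved outside it and 3 called ones changed sign: Atf4 in RG-like progenitors to 0.049 without the cells above the 75th percentile of immediate early genes, and, without the contractile mural cluster, Hsp90b1 and Pdia3 in mural cells to -0.064 and -0.019. That last setting and the omission of 3 other clusters were chosen after seeing the data. Leaving out a cluster can change only the ratios and levels of its own class, so the other values under these settings could not move. Without the contractile cluster 6 ratios, all in mural cells, lay outside their interval, with the 2 that changed sign among them. The summed ER-luminal ratio of vascular cells, 0.15, was 0.058 without the contractile cluster, 0.070 without the cells high in immediate early genes, 0.094 in cells with at most 10% mitochondrial UMIs and 0.094 as a mean over cells. In oligodendrocytes it was 0.147 in cells with at most 10% mitochondrial UMIs against 0.19, and in astrocytes 0.042 in cells with at least 2000 UMIs against -0.03. The number of pairs past 1.5-fold was 2 with classes from marker scores of single cells and 3 with clusters made without integration, against 5. Microglia had the highest level of 5 of the 10 genes, and of 5 to 7 under the alternatives. The share of all genes with their highest level in microglia was not taken. Of as many recomputed levels 210 moved outside their counting interval, 95 of them with mitochondrial, ribosomal and hemoglobin genes left out of the denominator. The causes were not tested. Depth limits Sdf2l1 most, with 10 to 100 UMIs in a library in most classes.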
